A study of Drosophila melanogaster with 9 samples.

Results

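The EGF receptor system of the egg chamber epithelium was followed through 9 genes of Drosophila melanogaster. They are the receptor Egfr, the ligands spi and vn, the protease rho, the inhibitors aos and kek1, the transcription factors pnt and mirr, and the cadherin Cad74A. The genes were taken by name from the tables of gene expression, and all 9 were found among the 15602 genes listed. Poly(A) RNA had been sequenced from staged ovarian follicles, 100 follicles to a sample, in 3 groups of 3 libraries. The first group is wild-type stage 8, the second is wild-type stage 10, and the third is stage 10 from females with a temperature-sensitive EcR mutation (EcRts). EcR is the nuclear receptor through which ecdysone, a steroid hormone, acts. The labels give the strain Oregon R and an age of 6 to 14 days for every sample, although the growth protocol puts the minimum at 4 days, and females of all groups were well fed for 36 h before dissection. Wild-type females were kept at 25 °C. EcRts females were moved to a restrictive temperature 2 days after eclosion, so mutation and temperature differ together in that group and cannot be told apart. The sources used here do not state the restrictive temperature, which EcR alleles were carried, or if replicates were dissected from separate females or on separate days. The p-values therefore measure only the spread between these samples, which may be technical.

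Each egg chamber wraps an oocyte and its nurse cells in a single layer of somatic follicle cells. The oocyte nucleus sits at the dorsal anterior corner and is the source of Gurken, a TGF-alpha-like ligand that activates Egfr in the follicle cells above it. The receptor signals through Ras and the MAP kinase rolled. In the dorsal follicle cells this pathway turns on its own ligand protease and its own inhibitors, and the resulting pattern of high and low activity sets where the dorsal appendages of the eggshell form. In whole follicles, these epithelial transcripts are diluted by those of the germline and of the remaining follicle cells. In such bulk samples fewer cells of a type and less RNA per cell cannot be told apart.

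Values are FPKM (fragments scaled by transcript length and library size) as deposited. Changes are differences of mean log2(FPKM + 1) between groups, tested with limma over the 8340 genes that reached 1 FPKM in 3 or more libraries. The verbs rose and fell are kept for genes with a Benjamini-Hochberg adjusted p under 0.05. Depth, derived from the deposited confidence limits, came to 18.6 to 21.7 M fragments per stage 8 library, 17.5 to 21.3 M for wild-type stage 10 and 27.2 to 33.3 M for EcRts. The 8 follicle cell markers summed to 15901 to 25236 FPKM at stage 8 and to 34019 to 42943 FPKM in wild-type stage 10, with 36279 to 42607 FPKM in EcRts. These sums are mostly yolk and vitelline membrane transcripts. The follicle cell transcription factor genes tj and eya in the same list instead fell with stage, tj from 74.4 ± 1.26 to 42.2 ± 3.83 FPKM (log2 change −0.81, limma adjusted p = 7.55e-05) and eya from 12.1 ± 1.69 to 5.61 ± 0.466 FPKM (−0.98, 5.36e-05). In EcRts tj stood at 56.5 ± 5.78 FPKM, higher than in wild-type stage 10 (0.41, limma adjusted p = 0.00631), and eya at 6.49 ± 0.0889 FPKM (0.18, 0.157). The 8 germline markers summed to 1909 to 2058, 1706 to 1846 and 1672 to 1745 FPKM in the same order, so both tissues of the follicle were present in every library. EcR itself stood at 19.4 ± 0.446 FPKM (SD, n = 3), 21.0 ± 1.36 and 20.6 ± 0.670. It did not pass the test between the stage 10 groups (log2 change −0.02, limma adjusted p = 0.731), and a level of RNA does not show if the receptor protein was active. The median change of all tested genes from stage 8 to stage 10 was 0.20, and it was −0.01 after median-of-ratios scaling, 0.01 after quantile normalization, 0.42 when libraries were rescaled without eggshell and yolk genes and 0.14 when they were rescaled to protein-coding genes. The share of calls that were higher was 72.2%, 49.3%, 52.0%, 86.1% and 66.2% in the same order. Between EcRts and wild-type stage 10 the median was −0.12, with −0.00075, −0.02, −0.29 and 0.07 under these scalings, and the share of calls that were higher was 22.7%, 51.1%, 46.9%, 8.10% and 68.1%. A change of a gene is therefore to be read against these medians.

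The members spanned a wide range of levels per transcript length, and their order changed with stage. At stage 8 spi was the most abundant of them, at a mean of 17.5 FPKM, followed by Egfr and pnt, whose libraries overlapped. Then came kek1, mirr, Cad74A and aos, and rho and vn stood last at 0.850 and 0.109 FPKM. The libraries of mirr and Cad74A also overlapped. In wild-type stage 10 Cad74A led with 46.1 FPKM, and 71.6% of the tested genes were lower, against 14.6% at stage 8. Next were spi and Egfr, which overlapped, then pnt, kek1, aos and mirr, the last of these overlapping with aos. In EcRts spi was again highest, at 15.0 FPKM, just above Cad74A at 13.2 FPKM. The other members lay below 10 FPKM there, in the order Egfr, pnt, kek1, mirr, aos, rho and vn. All 9 carried the status OK in every library, and the implied number of fragments behind a value ran from 9.59 for vn to 4469 for Cad74A.

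**Figure D1:**
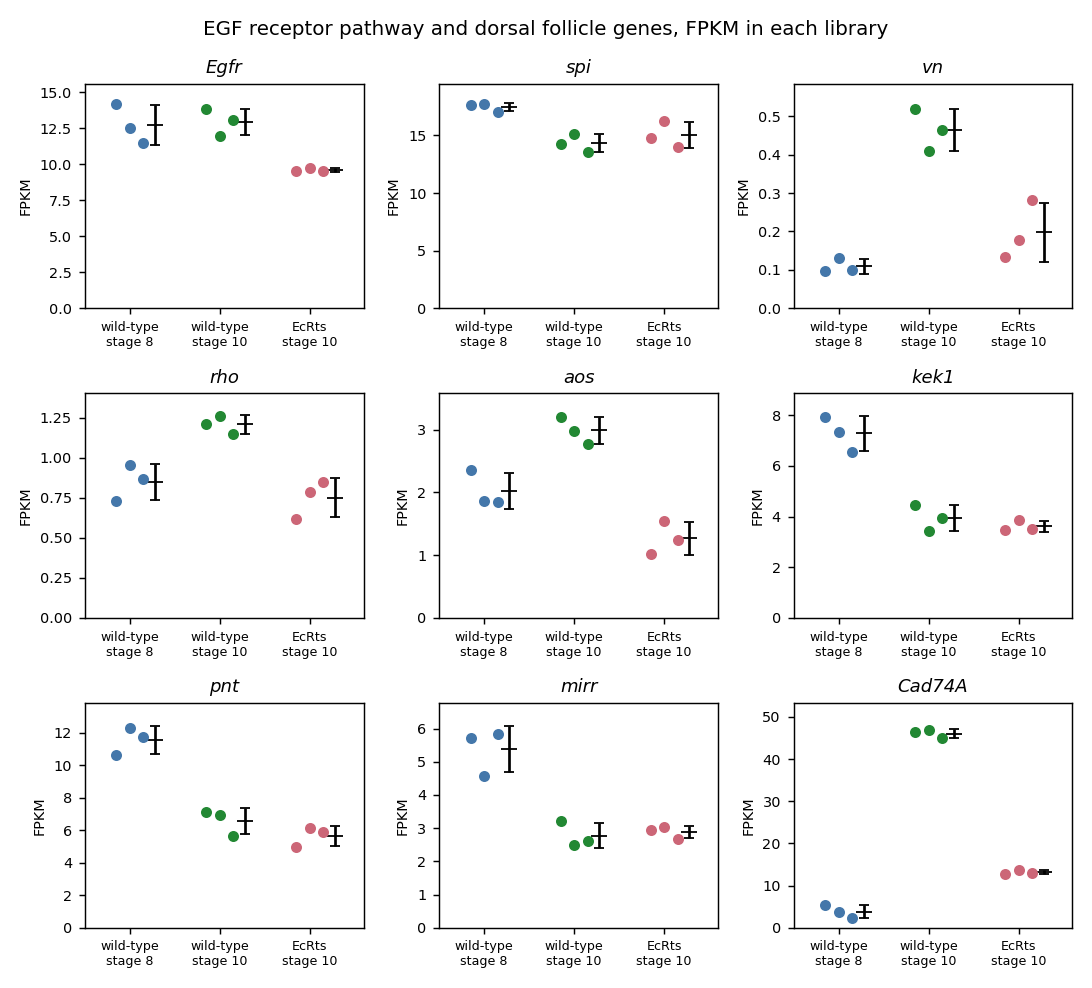
FPKM of the 9 genes, 1 panel each on a linear axis from 0, by group, with a point for each library and beside it the group mean with an error bar of 1 SD (n = 3). Cad74A moves furthest, from 2.42 to 5.33 FPKM at stage 8 to 44.9 to 46.8 FPKM in wild-type stage 10 and 12.8 to 13.8 FPKM in EcRts, while the libraries of kek1, pnt and mirr are highest at stage 8.

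Setting wild-type stage 10 against stage 8 asks how the pathway's transcripts change while the dorsal pattern is being set. Of the 8 tested genes 6 passed the test, against 68.1% of all tested genes. The cadherin Cad74A and the inhibitor aos rose, against 49.2% of all genes that rose. The ligand spi, the inhibitor kek1 and the transcription factors pnt and mirr fell, against 18.9% of all genes that fell. The median change of the 8 genes was −0.12, beside 0.20 over all tested genes. In 7 of the 8 genes the libraries of the groups did not overlap, 3 higher and 4 lower at stage 10, against 71.3% of all tested genes. The 3 higher include rho, which reached 1 FPKM only in wild-type stage 10, so the filter favoured its place there.

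Cad74A (FBgn0036715, chr3L:17360853-17372630 in dm3) encodes a cadherin, and values of whole follicles do not show which follicle cells express it. It measured 5.33, 3.81 and 2.42 FPKM in stage 8 replicates 1 to 3 and 46.4, 46.8 and 44.9 FPKM in wild-type stage 10. Every stage 10 library was far above every stage 8 library, and the stage 8 libraries spread widely. The mean rose 11.9-fold from 3.85 ± 1.46 to 46.1 ± 0.986 FPKM (SD, n = 3; log2 change 3.32, SE 0.187, limma adjusted p = 5.38e-06), and only 0.779% of tested genes changed by more in either direction. Stage 8 replicate 1, highest for Cad74A, was also highest for the eggshell genes Cp36, at 723 FPKM beside 369 and 342 FPKM, and Vm26Aa, at 6455 FPKM beside 3523 and 3634 FPKM. Whether that library held older follicles was not tested, and the change in Cad74A ran from 3.09 to 3.54 when each replicate in turn was left out.

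Both transcription factors fell. The ETS factor pnt, which acts downstream of the MAP kinase (FBgn0003118, chr3R:19116826-19171884), measured 10.6, 12.3 and 11.7 FPKM at stage 8 and 7.11, 6.96 and 5.65 FPKM at stage 10. Its lowest stage 8 library lay well above its highest stage 10 library, and the mean fell by 0.73 on the log2 scale (SE 0.106, limma adjusted p = 0.000391). The Iroquois homeodomain factor mirr, which represses ventral genes in the dorsal anterior epithelium (FBgn0014343, chr3L:12686739-12703243), measured 5.72, 4.58 and 5.84 FPKM at stage 8 and 3.20, 2.49 and 2.62 FPKM at stage 10. Its groups were again separate, and it was 1.94-fold higher at stage 8 (log2 change −0.76, SE 0.112, limma adjusted p = 0.000453). The falls of pnt, mirr and kek1 stood beside those of tj and eya, at −0.81 and −0.98. These were the only 2 of the 8 follicle cell markers that fell with stage, while 5 rose. The part of changes in such markers in the falls of pnt, mirr and kek1 was not tested.

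The inhibitors moved in opposite directions. The transmembrane leucine-rich repeat protein kek1 binds the receptor and dampens it (FBgn0015399, chr2L:12817000-12822787). Its libraries gave 7.94, 7.33 and 6.56 FPKM at stage 8 and 4.47, 3.41 and 3.96 FPKM at stage 10, with no overlap. The mean was 1.84-fold higher at stage 8, and the log2 change was −0.74 (SE 0.102, limma adjusted p = 0.000292). The secreted inhibitor aos binds spi and keeps it from the receptor (FBgn0004569, chr3L:16463486-16476750). It measured 2.36, 1.87 and 1.84 FPKM at stage 8 and 3.20, 2.98 and 2.78 FPKM at stage 10, again without overlap. It rose by 0.40 on the log2 scale (SE 0.123, limma adjusted p = 0.0185), a call lost after median-of-ratios scaling (adjusted p = 0.115), after quantile normalization (0.0735), without stage 8 replicate 2 (0.0559), without stage 8 replicate 3 (0.0582) and without wild-type stage 10 replicate 1 (0.0631).

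The ratio of aos to kek1 within a library does not depend on a common scale factor. It was 0.277 ± 0.0213 at stage 8 and 0.763 ± 0.0952 in wild-type stage 10, and the groups did not overlap. The exact two-sided permutation test gave p = 0.1, the smallest that 3 libraries against 3 allow (adjusted p = 0.15 over 15 tests of 5 ratios). In dm3 the whole 13265-base span of aos lies inside that of CG33158, which had 16.0 and 13.2 FPKM at the 2 stages. The library kit does not mark strand, so reads of aos and CG33158 that share sequence cannot be told apart, and their part in the values of aos was not tested.

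The receptor did not pass the test. Egfr encodes the receptor tyrosine kinase (FBgn0003731, chr2R:17410510-17446932). It measured 14.2, 12.5 and 11.5 FPKM at stage 8 and 13.8, 12.0 and 13.0 FPKM at stage 10, and the libraries overlapped. The log2 change of 0.02 had a 95% confidence interval of −0.16 to 0.21 (limma adjusted p = 0.811). The direction was negative after median-of-ratios, quantile and protein-coding scaling, and Egfr passed the test as lower after quantile normalization (−0.25, adjusted p = 0.0210) and as higher without eggshell and yolk genes (0.24, adjusted p = 0.0221).

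The ligand spi is the main TGF-alpha-like ligand of the fly outside the germline (FBgn0005672, chr2L:19567900-19577324). It measured 17.7, 17.7 and 17.1 FPKM at stage 8 and 14.3, 15.1 and 13.6 FPKM at stage 10. The groups did not overlap, and the mean was 1.22-fold higher at stage 8 (log2 change −0.27, SE 0.0635, limma adjusted p = 0.00528). With libraries rescaled without eggshell and yolk genes the call was lost (−0.06, adjusted p = 0.432).

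The intramembrane protease rho, which cuts the spi precursor in the signal-sending cell (FBgn0004635, chr3L:1463811-1468944), was near the limit of the tested range. It measured 0.731, 0.953 and 0.866 FPKM at stage 8 and 1.21, 1.26 and 1.15 FPKM at stage 10, and it passed the filter on low values only through wild-type stage 10, where it was highest. The libraries did not overlap, although the deposited confidence limits did, at 0.506 to 1.20 FPKM for stage 8 and 0.851 to 1.59 FPKM for stage 10. The log2 change of 0.26 missed the threshold (SE 0.120, limma adjusted p = 0.0891), and rho passed without the filter (adjusted p = 0.0279), without the intensity trend (0.00968) and without eggshell and yolk genes (0.0204). The whole 5134-base span of rho lies inside that of Ptp61F, a phosphatase gene whose mean FPKM was 44.3, 71.6 and 66.9 in stage 8, wild-type stage 10 and EcRts. Reads from sequence shared by rho and Ptp61F cannot be told apart by strand, and their part in the values of rho was not tested.

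The neuregulin-like ligand vn (FBgn0003984, chr3L:5806438-5838764) stayed below 1 FPKM in all 9 libraries and was not among the tested genes. It measured 0.0969, 0.130 and 0.0984 FPKM at stage 8 and 0.520, 0.410 and 0.464 FPKM in wild-type stage 10. The stage 10 mean was 4.28-fold that of stage 8. The deposited confidence limits of single libraries ran from 0.0348 to 0.197 FPKM at stage 8 and from 0.283 to 0.652 FPKM at stage 10, so they did not meet. An exact two-sided permutation test gave p = 0.1, again its smallest value (adjusted p = 0.12 over 6 tests of vn and rho). In the fit with no filter on low values, over 13531 genes, the log2 change was 0.40 (SE 0.0512, limma adjusted p = 0.000495).

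The comparison of EcRts with wild-type stage 10 addresses which transcripts differ between these groups, in which EcR mutation and temperature differ together. Of the 8 tested genes 3 fell and 0 rose, against 43.8% of all tested genes that passed, 33.9% that fell and 9.93% that rose. They were Cad74A, aos and Egfr. The median change of the 8 genes was −0.26, beside −0.12 over all tested genes. In 4 of the 8 genes the groups did not overlap, all lower in EcRts, against 57.3% of all tested genes. The 4 include rho, which passed the filter on low values only through wild-type stage 10, so the filter favoured its place there.

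Cad74A measured 12.8, 13.8 and 12.9 FPKM in EcRts against 44.9 to 46.8 FPKM in wild-type stage 10, and the groups were far apart. The wild-type mean was 3.50-fold higher (log2 change −1.73, SE 0.187, limma adjusted p = 0.000405), and this was the 77th lowest log2 change of the 8340 tested genes. EcRts remained 3.42-fold above stage 8. The chorion gene Cp36 was also lower in EcRts, at 1075, 1648 and 1082 FPKM against 3655, 2838 and 3126 FPKM in wild-type stage 10, while the vitelline membrane gene Vm26Aa stood at 14208, 12487 and 11189 FPKM against 11301, 12122 and 8618 FPKM. Whether follicles of both groups stood at the same point within stage 10 was not tested.

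The inhibitor aos measured 1.02, 1.54 and 1.24 FPKM in EcRts, below each wild-type stage 10 library. The wild-type mean was 2.36-fold higher (log2 change −0.82, SE 0.123, limma adjusted p = 0.00152), and this call held in each of the 20 fits that tested aos, with adjusted p up to 0.00806; a filter of 5 FPKM left it out. Its host CG33158 had 11.6 FPKM in EcRts beside 13.2 FPKM in wild-type stage 10. The other inhibitor, kek1, measured 3.47, 3.87 and 3.53 FPKM in EcRts, within the range of wild-type stage 10. Its log2 change was −0.09, with a 95% confidence interval of −0.33 to 0.14 (limma adjusted p = 0.488), and the sign turned positive after median-of-ratios and protein-coding scaling. The ratio of aos to kek1 was 0.348 ± 0.0518 in EcRts, below every wild-type stage 10 library (exact permutation p = 0.1, adjusted p = 0.15).

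Egfr measured 9.53, 9.76 and 9.52 FPKM in EcRts, tightly grouped and below all other libraries. It fell by 0.39 on the log2 scale (SE 0.0811, limma adjusted p = 0.00628), with a 95% confidence interval of −0.58 to −0.21. The call was lost with protein-coding scaling (−0.21, adjusted p = 0.0710). In contrast, spi measured 14.8, 16.3 and 14.0 FPKM in EcRts and overlapped with wild-type stage 10 (log2 change 0.06, 95% confidence interval −0.08 to 0.21, limma adjusted p = 0.447). It passed the test as higher after median-of-ratios scaling (0.18, adjusted p = 0.0414) and protein-coding scaling (0.25, adjusted p = 0.0151). The ratio of spi to Egfr was 1.11 ± 0.131 in wild-type stage 10 and 1.56 ± 0.0964 in EcRts, with no overlap (exact permutation p = 0.1, adjusted p = 0.15).

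The protease rho measured 0.616, 0.785 and 0.852 FPKM in EcRts, each below the wild-type stage 10 libraries and within or just under the stage 8 range. The log2 change of −0.34 missed the threshold (95% confidence interval −0.61 to −0.06, limma adjusted p = 0.0519). It passed without the filter on low values (adjusted p = 0.0169), without the intensity trend (0.00615) and without eggshell and yolk genes (0.0126). The ligand vn measured 0.132, 0.178 and 0.283 FPKM, and the wild-type stage 10 mean was 2.36-fold higher (exact permutation p = 0.1, adjusted p = 0.12). With no filter on low values its log2 change was −0.29 (limma adjusted p = 0.00618), and the confidence limits of single libraries, 0.0751 to 0.356 FPKM in EcRts, overlapped with those of wild-type stage 10.

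Neither transcription factor passed the test between the stage 10 groups. pnt measured 4.94, 6.13 and 5.86 FPKM in EcRts (log2 change −0.19, 95% confidence interval −0.43 to 0.06, limma adjusted p = 0.182), and it passed as lower without eggshell and yolk genes (−0.35, adjusted p = 0.0173). mirr measured 2.94, 3.03 and 2.69 FPKM (log2 change 0.05, 95% confidence interval −0.21 to 0.30, limma adjusted p = 0.760), and its sign turned negative after quantile normalization and without eggshell and yolk genes.

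Muscle markers and depth moved with the EcRts group. The 8 muscle markers summed to 18.6 to 25.0 FPKM in EcRts against 10.8 to 14.4 FPKM in wild-type stage 10 and 6.40 to 11.3 FPKM at stage 8, and 4 of their 6 tested genes rose in EcRts, against 9.93% of all tested genes. Among these, Mlc1, Mlc2 and Tm2 passed the filter on low values only through EcRts, where they were highest, so the filter favoured their rise. The 6 hemocyte markers summed to 6.85 to 10.2 FPKM in EcRts, 17.2 to 23.3 FPKM in wild-type stage 10 and 6.29 to 6.94 FPKM at stage 8. Nearly all of that sum was srp, since each of the other 5 reached at most 0.248 FPKM and He was at 0 in every library. The 4 fat body markers summed to at most 1.83 FPKM and the 5 neuron markers to at most 1.43 FPKM in any library. The 3 markers of border and stretched cells summed to 3.15 to 3.76 FPKM at stage 8, 1.38 to 1.54 FPKM in wild-type stage 10 and 1.67 to 1.82 FPKM in EcRts. Each EcRts library was also deeper than all wild-type libraries. The part of these differences in the results for the members was not tested.

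EcRts stage 10 was also set beside wild-type stage 8. This comparison shares its samples with the others, so its values stand beside theirs and are not independent of them. Of the 8 tested genes 7 passed, against 61.4% of all tested genes. In 7 the libraries did not overlap, 1 higher and 6 lower in EcRts, against 67.7% of all tested genes. Cad74A rose, against 39.8% of all genes that rose, and Egfr, spi, aos, kek1, pnt and mirr fell, against 21.5% of all genes that fell. kek1, pnt and mirr stood at 0.498, 0.489 and 0.536 of their stage 8 means, with log2 changes of −0.84, −0.92 and −0.71 (limma adjusted p = 0.000243, 0.000182 and 0.000874). From stage 8 to wild-type stage 10 the changes of the same genes were −0.74, −0.73 and −0.76. aos fell by 0.42 on the log2 scale (limma adjusted p = 0.0184), a call lost without stage 8 replicate 1 (0.0607), EcRts replicate 1 (0.0581) or EcRts replicate 3 (0.0520). The receptor Egfr fell by 0.37 (limma adjusted p = 0.00476). spi fell by 0.21 (limma adjusted p = 0.0211), which was lost with protein-coding scaling (−0.08, adjusted p = 0.264) and in 4 of the fits that left out a replicate, at adjusted p = 0.0543 to 0.0770. rho overlapped between these groups (log2 change −0.08, limma adjusted p = 0.592).

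**Figure D2:**
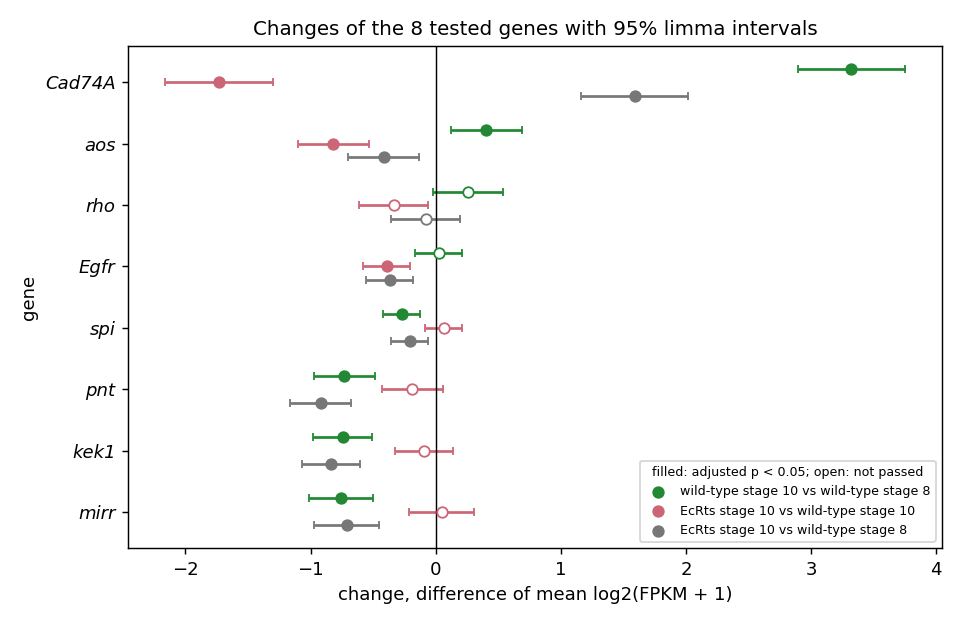
Differences of mean log2(FPKM + 1) for the 8 tested genes in the 3 comparisons, with 95% confidence intervals from limma and filled points for adjusted p under 0.05. Cad74A stands at 3.32 from stage 8 to stage 10 and at −1.73 in EcRts against wild-type stage 10, and kek1, pnt and mirr lie between −0.73 and −0.76 in the former and between −0.19 and 0.05 in the latter.

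Over the 9 libraries some pairs of tested members were alike in pattern. These libraries form 3 groups, so a correlation here mostly describes the group means and carries no p. kek1 followed mirr (Pearson r = 0.945) and pnt (0.929), pnt and mirr correlated at 0.889, and spi correlated with mirr at 0.841. Egfr and aos correlated at 0.853 and rho and aos at 0.834, while Cad74A and mirr ran against each other at −0.835. The pairs did not form separate sets, since Egfr correlated with rho at 0.522, with kek1 at 0.572 and with pnt at 0.513. Among all tested genes with a mean of at least 5 FPKM, those most like kek1 were LanA (r = 0.995) and LanB1 (0.986), which encode laminin chains, and trol (0.985), the perlecan of basement membranes. LanA itself is therefore closer to kek1 in pattern than any member is. Most like aos were CG8306 (0.984), CG17597 (0.978) and the glycolytic gene Pgk (0.976). Most like Cad74A were ball, MED22 and CG13339, each at 0.996. The r takes no account of the size of a change. Means of ball were 31.8, 53.3 and 41.2 FPKM in stage 8, wild-type stage 10 and EcRts, beside 3.85, 46.1 and 13.2 FPKM for Cad74A. The genes nearest to pnt were cdc14 (0.992), fs(1)M3 (0.989) and scaf6 (0.987), and those nearest to mirr were ana (0.996), mRpS9 (0.991) and l(1)G0020 (0.988). For Egfr they were CG33228 (0.963), CG13252 (0.960) and CG42708 (0.945), for spi CG12203 (0.965) and CG6163 (0.948), and for rho CG1317 (0.983), CR30055 (0.974) and Pka-R2 (0.973).

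The pathway's other genes were described by 5 lists. In the list of ligands and their processing 6 of 8 genes were tested, and 1 rose and 3 fell from stage 8 to stage 10, against 49.2% and 18.9% of all tested genes, with a median change of −0.15 beside 0.20. The germline ligand grk measured 23.0, 24.0 and 25.1 FPKM at stage 8 and 11.4, 12.8 and 10.8 FPKM at stage 10. Its libraries were well apart, and it fell by 0.99 on the log2 scale (limma adjusted p = 1.56e-05). In EcRts it measured 12.0, 13.2 and 13.6 FPKM, overlapping with wild-type stage 10 (log2 change 0.14, limma adjusted p = 0.161), and it passed as higher after median-of-ratios, quantile and protein-coding scaling (0.0202, 0.0265 and 0.0107). The second spi-like ligand, Krn, had means of 15.7, 17.5 and 19.1 FPKM in the 3 groups. It passed neither with stage nor between the stage 10 groups (limma adjusted p = 0.137 and 0.282). In EcRts against stage 8 Krn rose by 0.27 (limma adjusted p = 0.0219), a call lost after median-of-ratios (0.122) and quantile (0.296) scaling and in some fits that left out a replicate. It passed as higher with stage without stage 8 replicate 2 (0.0357) or eggshell and yolk genes (0.00277), and as higher in EcRts after quantile (0.0476) and protein-coding (0.0265) scaling. Within libraries grk was 1.38 ± 0.0859 times spi at stage 8 and 0.814 ± 0.0306 times spi at wild-type stage 10, and Krn was 0.899 ± 0.0740 and 1.22 ± 0.0185 times spi. Neither pair of groups overlapped (exact permutation p = 0.1, adjusted p = 0.15).

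The ligand export factor S fell from 52.5 ± 1.23 to 36.9 ± 4.84 FPKM between the stages (log2 change −0.51, limma adjusted p = 0.00103) and was higher in EcRts at 48.4 ± 2.48 FPKM (0.39, limma adjusted p = 0.00864), a rise lost when libraries were scaled without eggshell genes and yolk genes (adjusted p = 0.0649). The germline rhomboid protease stet fell by 0.35 with stage (limma adjusted p = 0.00200) and rose by 0.26 in EcRts (0.0169), and both calls were lost when eggshell and yolk genes were left out of the scaling (adjusted p = 0.136 and 0.370). The rise was also lost without EcRts replicate 2 (0.0562) or wild-type stage 10 replicate 1 (0.0539). cni, which is needed for Gurken export, rose by 0.25 with stage (limma adjusted p = 0.00182), a call lost after median-of-ratios (0.756) and quantile (0.218) scaling. The rhomboid protease ru was at most 0.234 FPKM. In EcRts 2 genes of the list rose and 0 fell, against 9.93% and 33.9% of all tested genes, with a median of 0.13 beside −0.12, and after median-of-ratios, quantile and protein-coding scaling 3, 4 and 4 rose, while without eggshell and yolk genes 0 rose and 2 fell.

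In the core of the Ras and MAP kinase cascade all 14 genes were tested, and 8 rose and 1 fell with stage, with a median change of 0.18 beside 0.20 over all tested genes, of which 49.2% rose and 18.9% fell. The number that rose depended on scaling, at 1, 1 and 3 after median-of-ratios, quantile and protein-coding scaling, and 5, 4 and 2 then fell. Without eggshell and yolk genes 11 rose and 0 fell. The MAP kinase gene rl moved most, from 52.0 ± 1.94 FPKM at stage 8 to 104 ± 7.91 in wild-type stage 10 (log2 change 0.99, limma adjusted p = 7.18e-06), with 68.8 ± 2.95 FPKM in EcRts (−0.59 against wild-type stage 10, limma adjusted p = 0.000351). Its groups did not overlap in any of the 3 comparisons. Ras85D, which encodes Ras, stood at 63.8, 72.0 and 66.8 FPKM and rose with stage by 0.17 (limma adjusted p = 0.0101), which was lost after median-of-ratios, quantile and protein-coding scaling (adjusted p = 0.303, 0.792 and 0.0693). The Raf kinase gene phl stood at 17.3, 20.1 and 22.6 FPKM and rose with stage by 0.20 (0.0345), and the MEK gene Dsor1 at 37.6, 38.6 and 44.2 FPKM and rose in EcRts by 0.19 (0.0317). The call for phl was lost without stage 8 replicate 1 or 2 or wild-type stage 10 replicate 1 or 2, with no filter, and after median-of-ratios, quantile and protein-coding scaling, at adjusted p up to 0.785. The call for Dsor1 was lost without EcRts replicate 1 or 2 or wild-type stage 10 replicate 1 or 3, with only the 2 groups fitted and without eggshell and yolk genes, at adjusted p up to 0.900. In EcRts 1 gene of the list rose and 3 fell, against 9.93% and 33.9% of all tested genes, with a median of −0.10. These counts also moved with scaling. The fall of 14-3-3epsilon was lost after median-of-ratios, quantile and protein-coding scaling (limma adjusted p = 0.392, 0.292 and 0.748). Without eggshell and yolk genes Ras85D passed as lower (0.00161).

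Of 9 further negative regulators 5 rose and 1 fell with stage, near the 49.2% and 18.9% of all tested genes, with a median of 0.23 beside 0.20, and 0, 1 and 3 rose after median-of-ratios, quantile and protein-coding scaling, against 8 without eggshell and yolk genes. The fall was in sty, the fly Sprouty, which measured 9.55 ± 1.09, 6.62 ± 0.679 and 4.17 ± 0.254 FPKM in the 3 groups. It fell by 0.47 with stage (limma adjusted p = 0.00300) and by a further 0.56 in EcRts (0.00323). The ETS antagonist edl stood at 2.30 ± 0.451, 3.64 ± 0.496 and 1.95 ± 0.408 FPKM. Like aos it was higher in wild-type stage 10 than in either other group, with a rise of 0.50 with stage (limma adjusted p = 0.0189) and a fall of 0.66 in EcRts (0.0100). The rise was lost after median-of-ratios scaling (0.0892), without wild-type stage 10 replicate 2 (0.0662) and without stage 8 replicate 3 (0.0619). The Ras-GAP gene Nf1 did not pass with stage (0.03, limma adjusted p = 0.712; lower after quantile normalization at 0.0173, higher without eggshell and yolk genes at 0.0184) and fell by 0.60 in EcRts, from 10.6 to 6.64 FPKM (0.000648). aop, a repressor countered by pnt, rose with stage by 0.26 (limma adjusted p = 0.00736), which was lost after median-of-ratios (0.574) and quantile (0.860) scaling. cic, a repressor relieved by the MAP kinase, stood at 42.1, 42.6 and 48.1 FPKM and rose in EcRts by 0.17 (limma adjusted p = 0.0379), and the call was lost without EcRts replicate 1, 2 or 3, without wild-type stage 10 replicate 1 or 3, without stage 8 replicate 1 or 3, with no filter, with only the 2 groups fitted and without eggshell and yolk genes, at adjusted p up to 0.889. In EcRts 2 genes of the list rose and 4 fell, against 9.93% and 33.9% of all tested genes, with a median of −0.10. These counts also moved with scaling. The fall of Gap1 was lost after median-of-ratios, quantile and protein-coding scaling (limma adjusted p = 0.117, 0.0635 and 0.438). Without eggshell and yolk genes the rise of Mkp3 was lost (0.392) and Cbl passed as lower (0.00388).

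**Figure D3:**
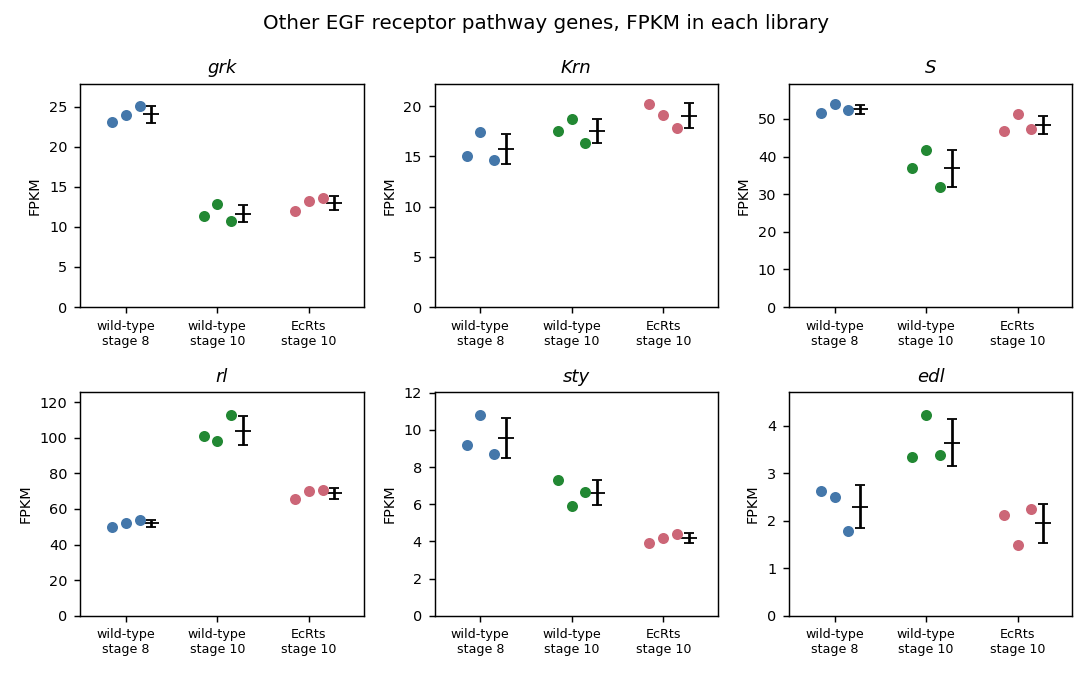
FPKM of grk, Krn, S, rl, sty and edl, on linear axes from 0, by group, with a point for each library and beside it the group mean with an error bar of 1 SD (n = 3). grk is highest at stage 8, rl is highest in wild-type stage 10, and sty steps down from 9.55 to 6.62 to 4.17 FPKM across the group means.

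Among 14 genes known as responses in or near the dorsal follicle cells, 6 rose and 6 fell with stage, against 49.2% and 18.9% of all tested genes, with a median of 0.02 beside 0.20. The stage calls for Fas3, Mmp1, Jra, Dad, fng and tkv held in every alternative fit that tested them. The other stage calls of the list did not, at limma adjusted p up to 0.630. In EcRts 0 rose and 6 fell, against 9.93% and 33.9%, with a median of −0.14, close to the −0.12 of all tested genes. The counts for EcRts moved to 1, 0 and 3 risen and 4, 5 and 3 fallen after median-of-ratios, quantile and protein-coding scaling, and to 0 and 9 without eggshell and yolk genes. The zinc finger gene br, which marks the cells of the appendage roof, fell with stage from 13.4 ± 1.33 to 10.0 ± 0.941 FPKM (log2 change −0.38, limma adjusted p = 0.0118, lost without eggshell and yolk genes at 0.144). It measured 11.5 ± 1.40 FPKM in EcRts (0.18, limma adjusted p = 0.203) and passed as higher with protein-coding scaling (0.0301). pip and fng are genes that mirr represses. pip stood at 6.34, 5.56 and 6.66 FPKM and passed in neither comparison (limma adjusted p = 0.146 and 0.0771), but after median-of-ratios scaling it passed as lower with stage (0.00502) and as higher in EcRts (0.0161), and likewise with protein-coding scaling (0.0485 and 0.00801), and as lower with stage after quantile normalization (0.0487). fng fell with stage from 11.6 ± 1.68 to 7.92 ± 0.150 FPKM (−0.49, limma adjusted p = 0.00291) and stood at 7.75 ± 0.749 FPKM in EcRts (−0.03, 0.823).

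The adhesion gene Fas3, the matrix protease gene Mmp1 and the Jun gene Jra rose with stage and fell in EcRts, in comparisons that share the wild-type stage 10 libraries. Fas3 stood at 6.63, 18.9 and 10.2 FPKM (log2 changes 1.38 and −0.83, limma adjusted p = 5.62e-06 and 0.000263). Mmp1 stood at 0.420, 1.41 and 0.446 FPKM (0.77 and −0.74, limma adjusted p = 0.000994 and 0.00326), and it passed the filter on low values only through wild-type stage 10, where it was highest. Jra stood at 18.6, 29.4 and 23.5 FPKM (0.63 and −0.31, limma adjusted p = 0.000102 and 0.00947), and its fall was lost with protein-coding scaling (0.176). The repressor gene ttk fell in EcRts from 89.8 to 65.1 FPKM (−0.45, limma adjusted p = 0.00101). Of the Dpp pathway, the inhibitor gene Dad fell with stage by 0.86 (limma adjusted p = 0.000869) and the receptor gene tkv by 0.41 (0.000344), and neither passed in EcRts, where Dad passed as higher with protein-coding scaling (0.0447) and tkv as lower without eggshell and yolk genes (0.0172).

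In the germline list of 9 genes that act on gurken RNA or its translation, 4 rose and 4 fell with stage, against 49.2% and 18.9% of all tested genes, with a median of 0.02. The stage calls for sqd, vas, otu, BicD and aret did not hold in all alternative fits, at limma adjusted p up to 0.862, 0.253, 0.888, 0.513 and 0.841. Those for orb, fs(1)K10 and cup held in all. The translational regulator orb fell by 1.14 (limma adjusted p = 6.59e-06) and fs(1)K10, which is needed to localise gurken RNA, fell by 0.84 (1.29e-05), beside the fall of 0.99 in grk itself. The largest rise of the list was in cup, by 0.48 (limma adjusted p = 9.03e-05), so the list did not move as 1 with grk. In EcRts fs(1)K10 rose by 0.52 (limma adjusted p = 0.000519), from 17.5 to 25.6 FPKM. Of the list 2 rose and 3 fell there, against 9.93% and 33.9% of all tested genes, with a median of −0.11, and after median-of-ratios, quantile and protein-coding scaling 0 fell.

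**Figure D4:**
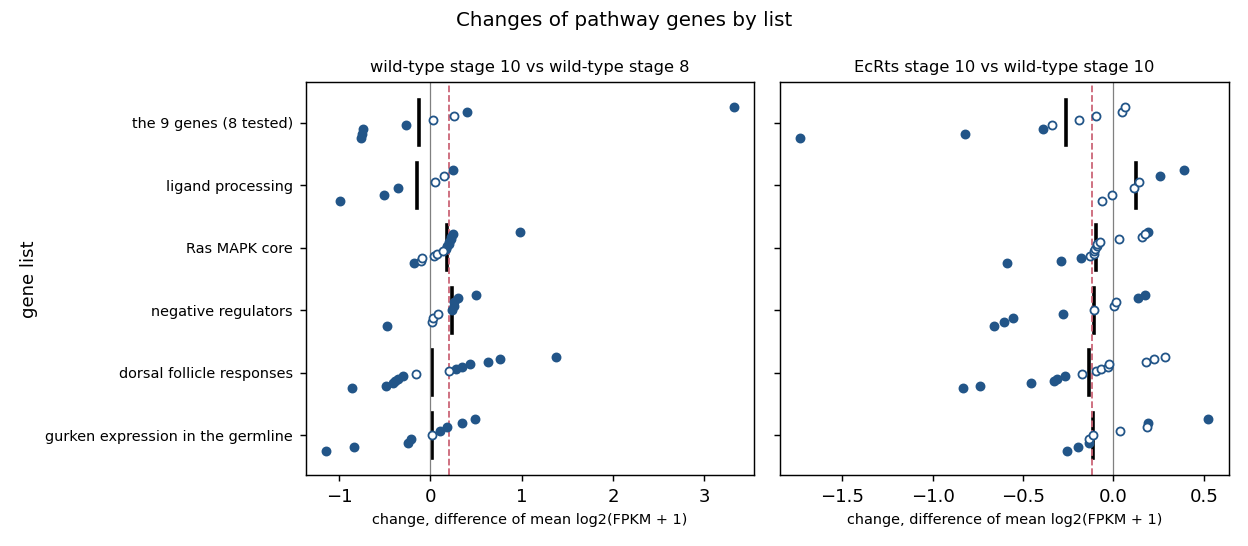
Differences of mean log2(FPKM + 1) of each tested gene in the 5 pathway lists and in the 9 genes, for wild-type stage 10 against stage 8 and for EcRts against wild-type stage 10, with filled points for adjusted p under 0.05, a black tick for the median of each list and a dashed line for the median of all tested genes. rl at 0.99, Fas3 at 1.38, grk at −0.99 and orb at −1.14 stand furthest from zero in their lists in the stage comparison.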

How the data were processed

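The authors' deposited values are gene-level FPKM with confidence limits and a status, 1 table per library; the submitters' processing notes list build dm3 and the tools Cufflinks 2.02, Bowtie2 2.0.6, CASAVA 1.8.2 and TopHat2 2.0.7. The labels' protocols name the TruSeq v2 kit with poly(A) selection. The sources used here state no annotation release, strand setting or read count.

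FPKM were transformed to log2(FPKM + 1), which understates changes of low genes. A model with 1 mean per group was fitted over 9 libraries, with an intensity trend, by limma 3.58.1 under R 4.3.3, with 6 residual degrees of freedom and Benjamini-Hochberg adjustment over 8340 genes. 21 genes with a failed estimate listed at 0 were left out. The fit was tested on simulated data. Implied fragment counts came from the confidence limits. For 54.3% to 57.8% of genes with under 50 they were whole to within 0.02, so no count test was run. Such limits cover counting error only. Libraries had 7924 to 8202 genes at 1 FPKM or more, and 0 pairs of libraries were identical. Symbols matched a current annotation for 14926 genes, and 5 turned into dates were restored. Coordinates are dm3, from 1.

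Alternatives were median-of-ratios, quantile and protein-coding scaling, rescaling without eggshell and yolk genes, other pseudocounts, other filters, no trend, separate fits, a replicate block and each replicate left out. The members, lists and tests were chosen with earlier results of these data known. All members are named. Of the lists, grk, Krn, S, ru, cni, Ras85D, phl, Dsor1, rl, sty, aop, cic, br, pip, fng and EcR are named, and otherwise genes among up to 3 with the largest change a direction and at least 1 FPKM in the higher group. The 3 genes most like each tested member follow that rule too. Cp36, Vm26Aa, tj, eya, Mlc1, Mlc2, Tm2, Gap1, srp and the host genes CG33158 and Ptp61F were named after their values were seen. A result that the rule calls for is not reported here. Ratios, vn and rho used exact two-sided permutation tests in scipy 1.17.1. Tables and figures used Python 3.11.15, numpy 2.4.6, pandas 2.3.3 and matplotlib 3.10.9.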

Additional observations from a re-analysis of the deposited data

How the results depend on the processing

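Over 20 alternatives, of which the filter of 5 FPKM left 5 members tested, 435 of the 471 alternative values for members kept direction and side of the threshold, 15 lost the call, 10 gained it and 11 turned sign. For Egfr with stage the change was −0.19 after median-of-ratios scaling, −0.25 after quantile normalization, −0.040 with protein-coding scaling, −0.042 without stage 8 replicate 3 and −0.021 without wild-type stage 10 replicate 1, with a range of −0.042 to 0.10 over the replicates left out. Between EcRts and wild-type stage 10, kek1 was 0.0045 after median-of-ratios and 0.065 after protein-coding scaling, mirr −0.0093 after quantile normalization, −0.092 when eggshell and yolk genes were left out and −0.0071 without wild-type stage 10 replicate 2 (range to 0.127), and spi −0.11 without eggshell and yolk genes. The cause was not tested. Genes called in EcRts numbered 5633 without eggshell and yolk genes, against 3654, and members called numbered 5 there and 5 with no filter, against 3. With each replicate left out, genes called ran from 5259 to 5647 with stage, 2846 to 3701 in EcRts and 4462 to 5128 for EcRts against stage 8, and members from 5 to 6, 3 to 3 and 5 to 7. With a replicate block 5550, 3336 and 4930 genes and 6, 3 and 7 members were called, and br passed in EcRts (adjusted p = 0.0374). The numbers share no stated day or animal, and deviations of the 9 same-numbered pairs correlated at −0.039 to 0.230, 2 of them over 0.1. The 18 pairs of other numbers ran from −0.235 to 0.167, also with 2 over 0.1. Such correlations cannot decide if same-numbered samples were paired, and the main fit took the samples as unpaired. Depth limits vn and rho most, at 9.59 to 62.2 and 42.2 to 82.3 implied fragments, and 3 libraries a group keep exact tests from going below p = 0.1.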

Other observations

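The GATA factor gene srp, known from hemocytes and the fat body, was singled out after its values were seen, since it made up nearly all of the hemocyte marker sum while the other markers of that list were near 0. It measured 6.82, 6.57 and 6.24 FPKM at stage 8, 22.1, 17.2 and 23.3 FPKM in wild-type stage 10 and 6.61, 10.0 and 7.18 FPKM in EcRts. Every wild-type stage 10 library lay above every library of the other groups. srp rose by 1.52 on the log2 scale with stage (limma adjusted p = 6.13e-05) and fell by 1.30 in EcRts (limma adjusted p = 0.000590), and EcRts did not pass against stage 8 (0.23, limma adjusted p = 0.234).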
